A study of Mus musculus with 768 samples.

Results

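The cells described here are the early organoid cells in which the tdTomato reporter transgene was read, set beside the cells of the same cultures in which it was not. Of 447 cells of Days 1 and 3, 410 were retained, each with 50000 or more reads on genes, 1500 or more detected genes and no more than 20% mitochondrial reads. Among these, 92 cells had 3 or more tdTomato reads and are called tdTomato-read cells, 303 had none and are called read-free cells, and 15 had 1 or 2 reads and were used on neither side. The whole series holds 768 cells, of which 711 passed the same limits. The tdTomato count chose the cells, so its level is given below as a description and was not tested.

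All cells came from mice labelled Fgfr3-CreERT2/Ai14-tdTomato/Sox2-GFP, and both sides share these alleles. The source was the greater epithelial ridge (GER) of the postnatal day 2 cochlea, enriched by flow cytometry and grown for 1 or 3 days as organoids in DMEM/F-12 with N-2, B-27, ampicillin, EGF, FGF2, IGF1, CHIR99021, valproic acid, 2-phospho-L-ascorbic acid and the TGFβ receptor inhibitor 616452. The labels state neither whether or when tamoxifen was given nor whether tdTomato was used as a gate in the sort, and they do not say how many animals made up a culture. There were 3 cultures on each day, named by day and replicate in the sample titles. A culture was the unit of every comparison, and its tdTomato-read and read-free cells share medium and day. Whether they also share animals and sort gate cannot be told from the labels.

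In such mice Cre recombinase fused to the ERT2 domain is made where the Fgfr3 gene is active, and it enters the nucleus when tamoxifen is present. There it removes a stop sequence before tdTomato, after which the cell and its descendants can make the reporter whether or not Fgfr3 is still active. In the neonatal organ of Corti Fgfr3, a receptor for fibroblast growth factors, is known for its expression in the lateral supporting cells (pillar and Deiters cells), which stand beside the outer hair cells. The GER lies on the inner side of the duct, expresses the tectorial membrane genes Tecta and Tectb, and holds cells that can divide and form organoids in culture.

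Libraries were made by SmartSeq2, which copies whole transcripts of single cells and tags no molecules. The median tdTomato-read cell had 799156 reads on genes (142578 to 1189584) and the median read-free cell 738664 (53945 to 1116608). Summed per culture, the tdTomato-read side held 4629905 to 19146680 reads and the read-free side 21137941 to 44587103. Of the tdTomato-read cells 91 of 92, and of the read-free cells 303 of 303, had a read of the epithelial markers Epcam or Cdh1. Reads are PCR copies, so they do not count molecules. The intervals and count limits below treat pooled cells as independent. They cover counting error only and leave out the spread between cultures.

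tdTomato-read cells were present in all 6 cultures. In Day 1 cultures 1, 2 and 3 they were 10 of 53, 24 of 86 and 8 of 43 retained cells, or 18.9%, 27.9% and 18.6%. In Day 3 cultures 1, 2 and 3 they were 17 of 85, 18 of 70 and 15 of 73, or 20.0%, 25.7% and 20.5%. The ranges of both days overlapped, with a mean of 21.8% ± 5.30 (SD, n = 3 cultures) on Day 1 and 22.1% ± 3.15 (n = 3) on Day 3 (exact permutation p = 1.00, two-sided, smallest possible p 0.1). Over both days the share was 22.4% (exact Clopper-Pearson 95% interval 18.5% to 26.8%). On Day 7, 32 of 301 retained cells met the same rule, between 2.70% and 14.7% of a culture. The highest of the 5 Day 7 shares lay below the lowest of the 6 earlier ones at this limit, and with 10 or more reads they overlapped (2.70% to 10.7% on Day 7, 9.30% to 22.1% before).

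The level of tdTomato was low and varied widely among the cells that had it. A tdTomato-read cell had between 3 and 111 tdTomato reads with a median of 13, which is 2.84 to 172 CPM with a median of 18.2 (CPM, reads scaled to a total of 1000000 on genes). Of the 92 cells, 61 had 10 or more reads, 26 had 4 to 9 and 5 had exactly 3. Just outside the limit, 7 cells had 2 reads and 8 had 1. The median depth was 793194 reads in the cells with 3 tdTomato reads and 652333 in those with 2. With all cells thinned at random to 200000 reads, 15.4% of those deep enough kept 3 or more tdTomato reads, so the share of tdTomato-read cells depends on depth.

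**Figure D1:**
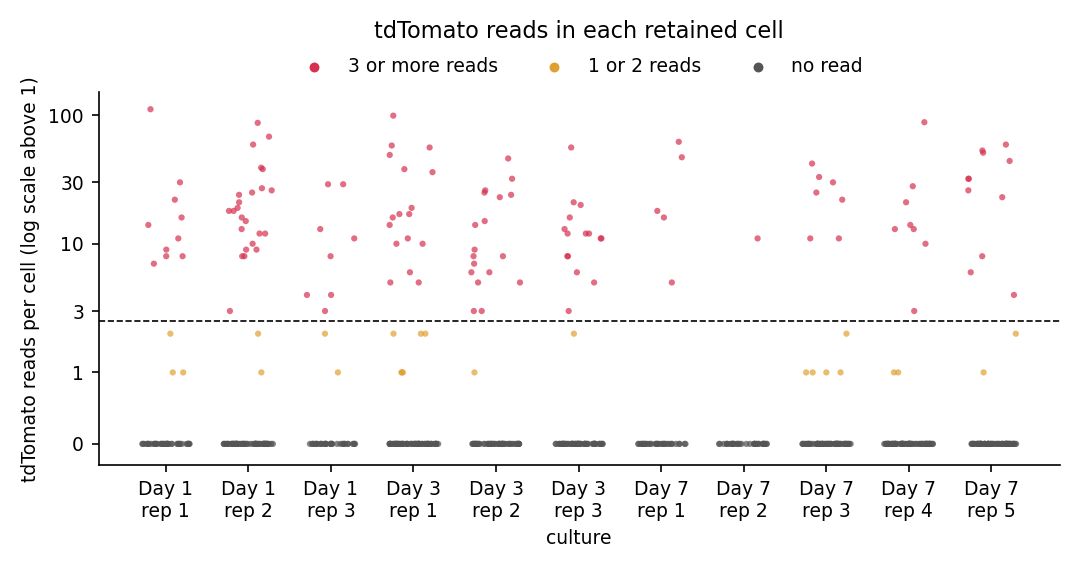
Each point is 1 retained cell, placed by its culture (x axis) and its tdTomato reads (y axis, linear to 1 and logarithmic above), with the dashed line at the limit between 2 and 3 reads. All 6 cultures of Days 1 and 3 hold 8 or more cells above the line, and Day 7 culture 2 holds 1.

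The other transgenes were read on both sides. The Sox2-GFP reporter was read in 87 of 92 tdTomato-read cells (94.6%) and in 279 of 303 read-free cells (92.1%). Its median level over cells was 42.2 ± 11.9 CPM (SD, n = 6 cultures) in tdTomato-read and 37.8 ± 7.88 in read-free cells, higher in 4 of 6 cultures (exact sign-flip permutation p = 0.438, adjusted p = 0.547 by Benjamini-Hochberg over 10 per-cell measures). A Cre read was present in 9 of 92 tdTomato-read cells (9.78%, interval 4.57% to 17.8%) and in 16 of 303 read-free cells (5.28%, 3.05% to 8.43%). The share with a Cre read was higher on the tdTomato-read side in 3 cultures and lower in 2 (exact sign-flip permutation p = 0.375, adjusted p = 0.547). ERT2 reads gave 10 of 92 and 19 of 303 cells, with an exact sign-flip permutation p of 0.531 (adjusted p = 0.590). The reporter level, the Cre share and the ERT2 share of both sides overlapped between cultures, and no difference between sides was larger than the spread between the paired cultures.

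Fgfr3 itself, the gene that drives the Cre, was read in fewer tdTomato-read cells. An Fgfr3 read was present in 2 of 92 tdTomato-read cells (2.17%, interval 0.264% to 7.63%) and in 23 of 303 read-free cells (7.59%, 4.87% to 11.2%). The share was 0% on the tdTomato-read side of all 3 Day 1 cultures and of Day 3 culture 2, 5.88% in Day 3 culture 1 and 6.67% in Day 3 culture 3. On the read-free side it was 7.50%, 1.67% and 15.2% in Day 1 cultures 1, 2 and 3 and 6.45%, 11.8% and 7.02% in Day 3 cultures 1, 2 and 3. The share was lower on the tdTomato-read side in 6 of 6 cultures by a mean of 6.17 percentage points (2.09% ± 3.25 against 8.26% ± 4.66, SD, n = 6). That is the smallest p that 6 paired cultures can give (exact sign-flip permutation p = 0.031, two-sided), and it did not pass adjustment over the 10 measures (adjusted p = 0.156). With 10 or more reads the mean difference was -5.40 points (exact sign-flip permutation p = 0.188). In the summed counts Fgfr3 stood at 0 to 1.76 CPM on the tdTomato-read side and 0.187 to 5.61 on the read-free side, here as CPM of the summed library with TMM scaling, as in all summed values below. Day 3 culture 1 had 1.76 CPM on both sides, and Fgfr3 was not called (edgeR quasi-likelihood, adjusted p = 0.563).

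No marker of lateral supporting cells was called, Fgfr3 included. Prox1, a transcription factor of pillar and Deiters cells, had a read in 1 of 92 tdTomato-read and 4 of 303 read-free cells. Hes5, a Notch effector, had reads in 6 and 13 cells, at 1.96 ± 2.25 CPM (SD, n = 6) and 2.21 ± 3.09 CPM. Hey1, a Notch-related repressor, averaged 128 ± 12.8 and 101 ± 32.3 CPM, higher in 5 of 6 cultures with a fitted log2 difference of 0.39 ± 0.14 (SE, edgeR adjusted p = 0.533). Its relative Hey2 averaged 5.68 and 8.42 CPM, lower in 5 of 6 cultures (log2 difference -0.66 ± 0.67, edgeR adjusted p = 0.811). Lgr5, a Wnt co-receptor found in a subset of supporting cells, averaged 99.9 ± 47.6 and 106 ± 58.5 CPM (log2 difference 0.02 ± 0.31, edgeR adjusted p = 0.994). Of the 18 listed lateral supporting cell genes 13 were tested, 4 had a fitted difference above 0 and 9 below it, and none was called. Their median log2 difference was -0.45, and it was -0.03 in thinned cells, 0.01 with each cell weighted equally and 0.16 against read-free cells with a matched number of genes. By the main test neither Fgfr3 nor any other tested gene of this list was called higher in the tdTomato-read cells. The list as a whole was not tested, and its median changed sign between settings.

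The tdTomato-read cells had more genes with a read. These cells were chosen by 3 or more reads of a low transcript before thinning. The part of that rule in this difference was not tested. With every cell thinned to 200000 reads, which left out 1 tdTomato-read and 11 read-free cells, the median cell of a culture had 6776 ± 202 genes with a read on the tdTomato-read side and 6092 ± 367 on the read-free side (SD, n = 6 cultures). The difference was above 0 in 6 of 6 cultures with a mean of 685 genes (exact sign-flip permutation p = 0.031, the smallest possible; adjusted p = 0.156). With tdTomato-read cells defined by 10 or more reads the mean difference was 410 genes (exact sign-flip permutation p = 0.219). At 3 or more reads it was largest in Day 3 culture 2, where the medians were 6944 and 5381, and smallest in Day 1 culture 2, with 6412 and 6283. Depth itself was higher on the tdTomato-read side in 5 of 6 cultures by a mean of 39192 reads (exact sign-flip permutation p = 0.406, adjusted p = 0.547). The part of the number of genes in the differences below was not tested, and values against read-free cells of the same culture matched for genes with a read, an alternative chosen after seeing the data, are given beside most of the lists and some of the genes below.

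**Figure D2:**
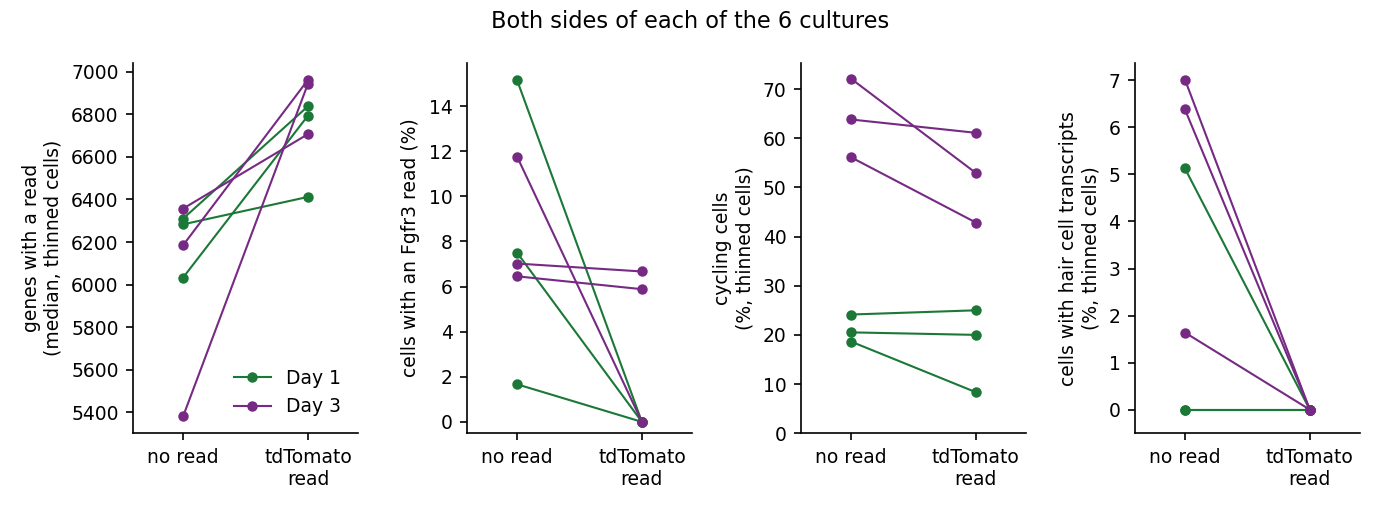
Each line joins the read-free and the tdTomato-read cells of 1 culture (green Day 1, purple Day 3); the panels show the median number of genes with a read in thinned cells and the percent of cells with an Fgfr3 read, called cycling and with hair cell transcripts. Genes with a read are higher and Fgfr3 is lower in all 6 cultures, cycling cells are lower in 5, and hair cell transcripts are at 0% on every tdTomato-read side.

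Across all genes no difference between the sides passed the main test. Of 13746 genes tested with edgeR's quasi-likelihood test on the 12 sums, with culture as a block, 0 were called at a Benjamini-Hochberg adjusted p under 0.05 (0% of genes tested), and 1156 had an unadjusted p under 0.05 (8.41%), 417 of them higher (3.03%) and 739 lower (5.38%) in tdTomato-read cells. DESeq2 called 197 genes (1.43%), 86 higher (0.626%) and 111 lower (0.808%), and limma on mean values per cell called 0 with 1608 at an unadjusted p under 0.05, 809 higher and 799 lower. Against gene-matched read-free cells edgeR called 0, with 352 higher and 336 lower at an unadjusted p under 0.05. The CPM of the tdTomato-read side was above that of the read-free side in 6 of 6 cultures for 266 genes (1.94%) and below it in 6 of 6 for 616 (4.48%). The median log2 difference over all genes tested was -0.12, and 62.3% of genes lay below 0, so the counts of lower genes are read against that shift. Where a gene is lower in a sum, fewer cells with its RNA and less RNA per cell cannot be told apart from the sum alone, and the number of cells with a read is given for that reason.

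Ranked by p among genes with the same direction in every culture, the leading genes in the higher direction included the 9 genes Myof, Egfl6, Capn6, Anxa2, Phactr2, Ero1l, Ralb, Sorbs2 and Flna, and none was called by edgeR (adjusted p 0.192 to 0.492). The ranking asked for the same direction in 6 of 6 cultures, so that direction is no finding for these genes. Their median log2 difference was 0.66, and it was 0.72 against the gene-matched read-free cells.

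Myof encodes myoferlin, a membrane protein of vesicle fusion and membrane repair, on chromosome 19 (37899036 to 38043577, GRCm38). Its level on the tdTomato-read side was 44.7, 12.03 and 74.5 CPM in Day 1 cultures 1, 2 and 3 and 12.5, 18.3 and 4.92 CPM in Day 3 cultures 1, 2 and 3. On the read-free side it was 9.27, 3.04 and 6.88 CPM on Day 1 and 2.13, 5.16 and 1.25 CPM on Day 3. The lowest tdTomato-read value, in Day 3 culture 3, lay within the read-free range, and the other 5 tdTomato-read values lay above the highest read-free value. The fitted log2 difference was 2.34 ± 0.32 (SE; edgeR adjusted p = 0.192, DESeq2 adjusted p = 7.96e-09). Myof had a read in 25 of 92 tdTomato-read cells and in 37 of 303 read-free cells, and its share was 29.0% in cells with 3 to 9 tdTomato reads and 26.2% in cells with 10 or more.

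Egfl6, a secreted EGF-repeat protein of basement membranes on chromosome X (166523007 to 166585720), had the next smallest p. The tdTomato-read side stood at 51.0, 90.5 and 69.4 CPM in the Day 1 cultures and at 88.0, 236 and 83.2 CPM in the Day 3 cultures. The read-free side stood at 20.6, 33.5 and 33.6 CPM and at 24.2, 78.1 and 56.6 CPM in the same order. Day 3 culture 2 was the highest on both sides. The log2 difference was 1.304 ± 0.18 (edgeR adjusted p = 0.192, DESeq2 5.73e-08), with a read in 45 of 92 and 102 of 303 cells.

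Anxa2, a calcium-dependent membrane-binding annexin on chromosome 9 (69453620 to 69491795), stood at 1575, 1799 and 827 CPM in tdTomato-read cells of the Day 1 cultures and at 964, 1191 and 761 CPM in read-free cells. On Day 3 the same gene stood at 1067, 1146 and 664 CPM and at 599, 822 and 498 CPM. The levels of Anxa2 overlapped between sides across cultures, and the smallest difference within a culture was in Day 1 culture 3. Its log2 difference was 0.53 ± 0.10 (edgeR adjusted p = 0.492, DESeq2 8.84e-05).

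The other 6 genes of this group differed by 0.55 to 0.98 on the log2 scale. Flna, an actin-crosslinking filamin, averaged 360 ± 166 CPM against 235 ± 74.5 CPM, and Sorbs2, an adaptor of actin and adhesion sites, 277 ± 87.0 CPM against 180 ± 41.7 CPM. Ralb, a small GTPase of exocytosis, was read in 85 of 92 tdTomato-read and 227 of 303 read-free cells, and Phactr2, a regulator of phosphatase and actin, in 61 and 117. Capn6, a calpain-family protein without protease activity that binds microtubules, averaged 236 ± 139 and 150 ± 71.7 CPM. Ero1l, an oxidase of disulfide bond formation in the endoplasmic reticulum, averaged 173 ± 110 and 104 ± 54.5 CPM.

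The 10 leading genes in the lower direction, ranked in the same way, were Stmn1, Pclaf, H3f3b, Ntm, Srrm1, Exosc8, Pcp4, Lsm3, Ankfy1 and Cdca2, none called by edgeR (adjusted p 0.205 to 0.492). Their median log2 difference was -0.91, and it was -0.93 against gene-matched cells. H3f3b, which encodes the replication-independent histone H3.3, had a difference of -0.38 ± 0.08 in the whole comparison and -0.13 against gene-matched cells. Srrm1, a splicing coactivator, had -0.60 ± 0.13 and -0.24 in the same order.

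Stmn1 encodes stathmin, which destabilises microtubules and is abundant in dividing cells (chromosome 4, 134468320 to 134473843). Its level was 128, 203 and 207 CPM in tdTomato-read cells of the Day 1 cultures and 305, 478 and 379 CPM in those of Day 3. In read-free cells it was 170, 277 and 389 CPM on Day 1 and 503, 935 and 694 CPM on Day 3. On each side the 3 Day 3 values lay above the 3 Day 1 values, and across days the 2 sides overlapped. The log2 difference was -0.72 ± 0.11 (edgeR adjusted p = 0.205, DESeq2 5.65e-06). A read was present in 88 of 92 and 293 of 303 cells, so nearly all cells of both sides held the transcript.

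Pclaf, a PCNA-binding protein of DNA replication, averaged 42.1 ± 28.2 CPM in tdTomato-read and 74.0 ± 52.1 CPM in read-free cells. Cdca2, which recruits a phosphatase to chromosomes in mitosis, averaged 23.4 ± 16.8 and 47.1 ± 32.1 CPM. Exosc8, a subunit of the RNA exosome, averaged 30.4 ± 14.2 and 61.7 ± 42.4 CPM, and Lsm3, a component of the spliceosomal U6 particle, 27.5 ± 8.22 and 50.5 ± 17.1 CPM. Ankfy1, an endosomal protein, averaged 13.9 ± 10.5 and 28.8 ± 7.88 CPM. Ntm, a cell adhesion protein of the immunoglobulin family, had a read in 23 of 92 and 113 of 303 cells, at 9.34 ± 3.76 and 26.4 ± 14.4 CPM. Pcp4, a small protein of calcium signalling, differed most in fitted size (-3.84 ± 0.84), but 1 read-free cell of Day 3 culture 2 held 5935 of the 8986 read-free Pcp4 reads (66.0%). Without the cells with hair cell transcripts the difference of Pcp4 was -1.82.

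**Figure D3:**
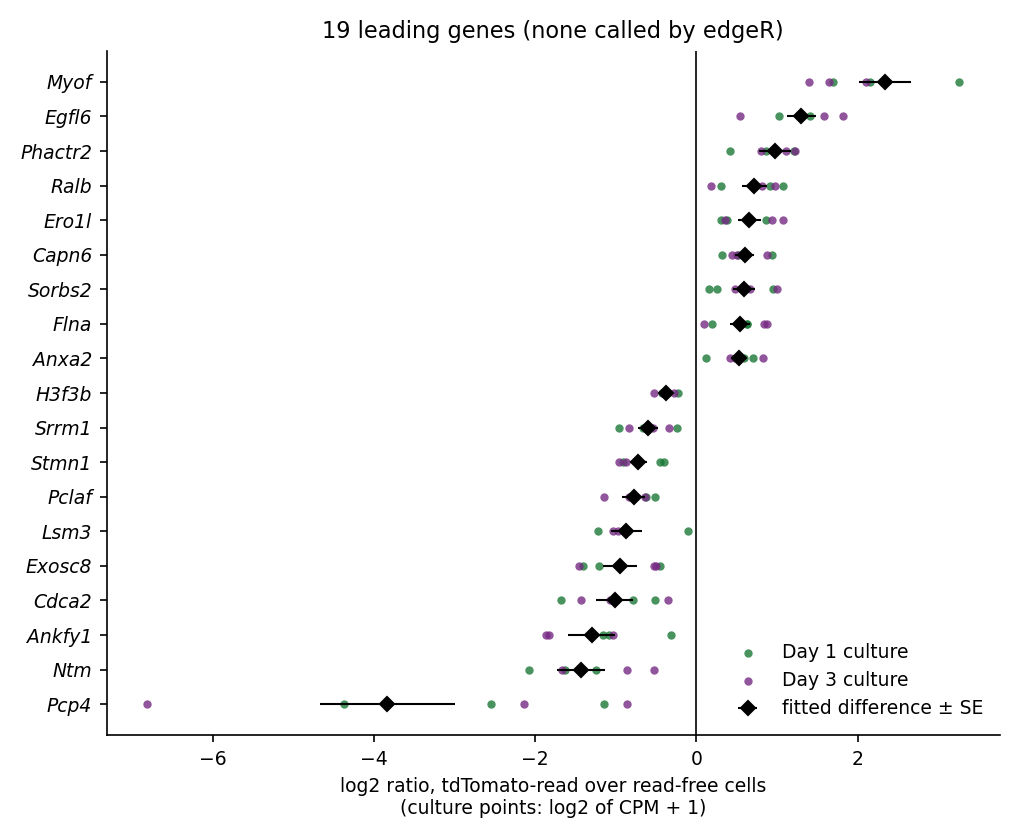
The x axis is the log2 ratio of tdTomato-read to read-free cells and each row is 1 of 19 leading genes; coloured points are the 6 cultures (log2 of CPM plus 1) and black diamonds the fitted differences with their standard errors. By the rule that chose them all points of a gene lie on 1 side of 0, the fitted values run from 2.34 for Myof to -3.84 for Pcp4, and the Pcp4 points are the most scattered.

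Genes of the cell cycle lay lower in tdTomato-read cells as a group, though none was called. Of the 33 S phase genes all were tested, 31 had a log2 difference below 0 and 2 above it, and their median was -0.42 beside -0.12 over all genes. An unadjusted p under 0.05 in the lower direction was found for 11 of the 33 (5.38% of all genes), and 6 were lower in 6 of 6 cultures (4.48% of all genes). Of the 37 G2/M genes 36 lay below 0 with a median of -0.64, 19 had an unadjusted p under 0.05 in the lower direction, and 6 were lower in 6 of 6 cultures. DESeq2 called 6 G2/M genes and 1 S phase gene lower and none higher (0.808% of all genes were called lower). The medians against gene-matched cells were -0.64 for S phase and -0.91 for G2/M.

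Mki67, a proliferation marker that coats mitotic chromosomes, stood at 10.7, 5.15 and 52.5 CPM in tdTomato-read cells of the Day 1 cultures and at 97.2, 80.6 and 61.3 CPM in those of Day 3. In read-free cells it stood at 33.4, 25.8 and 55.0 CPM and at 109, 158 and 123 CPM. The difference was small in Day 1 culture 3 and Day 3 culture 1 and larger in the other 4 cultures, with a fitted value of -1.01 ± 0.28 (edgeR adjusted p = 0.492, DESeq2 0.0346). Top2a, the topoisomerase that untangles replicated DNA, averaged 86.3 ± 51.9 against 126 ± 69.4 CPM (-0.61 ± 0.14). Pcna, the sliding clamp of DNA polymerase, averaged 134 ± 40.1 against 193 ± 64.4 CPM (-0.52 ± 0.12), and Cenpf, a kinetochore protein, 23.9 ± 23.5 against 46.7 ± 41.2 CPM (-1.13 ± 0.27). Ccnb1, the mitotic cyclin B1, averaged 66.8 against 111 CPM (-1.21 ± 0.30). Dtl, which targets replication factors for degradation, averaged 45.0 ± 26.1 against 71.6 ± 23.2 CPM.

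The share of cells called cycling gave a smaller contrast. Cells were called cycling when 3 or more of the 6 genes Tpx2, Ccnb2, Birc5, Cdk1, Top2a and Mki67 were detected after thinning. On Day 1 the share was 20.0%, 8.33% and 25% on the tdTomato-read side of cultures 1, 2 and 3 and 20.5%, 18.6% and 24.1% on the read-free side. On Day 3 it was 52.9%, 61.1% and 42.9% against 72.1%, 63.8% and 56.1%. The tdTomato-read share was lower in 5 of 6 cultures by a mean of 7.53 percentage points (exact sign-flip permutation p = 0.0938, adjusted p = 0.312). With tdTomato-read cells defined by 10 or more reads the mean difference was -15.5 points (exact sign-flip permutation p = 0.031, not adjusted). Mki67 was read in 16 of 31 cells with 3 to 9 tdTomato reads, in 16 of 61 with 10 or more and in 150 of 303 read-free cells.

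No tdTomato-read cell was called a carrier of hair cell transcripts, and some read-free cells were. Carriers were cells in which 2 or more of the 5 genes Pvalb, Myo7a, Gfi1, Pou4f3 and Atoh1 were detected. After thinning 0 of 91 tdTomato-read cells met this (interval 0% to 3.97%, with 3 counts of the 91 being 3.30%). Among read-free cells 10 of 292 did (3.42%, interval 1.65% to 6.21%). The read-free share was 5.13%, 0% and 0% in the Day 1 cultures and 1.64%, 6.38% and 7.02% in the Day 3 cultures, against 0% in each tdTomato-read set, and 4 of 6 cultures differed (exact sign-flip permutation p = 0.125, adjusted p = 0.312). Atoh1, the transcription factor that starts hair cell fate, had a read in 1 tdTomato-read cell and 9 read-free cells, and Pou4f3, a hair cell transcription factor, in 2 and 10. Of the 20 hair cell genes 4 were tested, all 4 lay below 0 with a median of -0.74, and the median was -0.36 against gene-matched cells and -0.20 without the cells with hair cell transcripts.

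2 genes too sparse for the main filter were called by edgeR when the filter was dropped, and are named here after their values were seen. Ccer2, a secreted protein listed with the hair cell genes, was at 0 reads in all 92 tdTomato-read cells (interval 0% to 3.93%, with 3 counts of the 92 being 3.26%). It had a read in 24 of 303 read-free cells (7.92%, interval 5.14% to 11.6%). Its read-free level was 7.23, 0.351 and 0.191 CPM in the Day 1 cultures and 1.36, 80.2 and 222 CPM in the Day 3 cultures, and 1 cell held 62.9% of its reads (edgeR without the filter, adjusted p = 0.00416). Rgs4, a regulator of G-protein signalling, had a read in 7 of 92 tdTomato-read cells (7.61%, interval 3.11% to 15.1%) and 2 of 303 read-free cells (0.660%, 0.0800% to 2.36%). On the tdTomato-read side it stood at 118 and 162 CPM in Day 1 cultures 1 and 2, at 11.2 and 5.12 CPM in Day 3 cultures 1 and 2 and at 0 in the other 2, and 1 cell held 3016 of its 4062 reads (edgeR without the filter, adjusted p = 0.00318). Most reads of both genes came from 1 cell each.

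Genes of a simple epithelium lay slightly higher in tdTomato-read cells as a group, though none was called by edgeR. Their median was 0.05 in the Day 1 cultures and 0.53 in the Day 3 cultures. Of 11 genes 10 had a log2 difference above 0 (37.7% of all genes did), with a median of 0.26, and 0.38 against gene-matched cells. Cdh1, the epithelial cadherin, stood at 708, 494 and 657 CPM in tdTomato-read cells of the Day 1 cultures and at 765, 308 and 318 CPM in those of Day 3. In read-free cells Cdh1 stood at 559, 438 and 354 CPM and at 645, 197 and 224 CPM. It was higher in 6 of 6 cultures, with a log2 difference of 0.47 ± 0.11 (edgeR adjusted p = 0.492, DESeq2 0.00594). Krt8, a keratin of simple epithelia, averaged 1777 ± 1036 against 1050 ± 424 CPM and was lower in Day 1 culture 2 (0.68 ± 0.21, edgeR adjusted p = 0.505). Epcam averaged 1381 ± 356 against 1350 ± 427 CPM and differed by less than its standard error (0.06 ± 0.09).

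No marker of the GER and its tectorial membrane was called. Of 14 genes tested 6 lay above 0 and 8 below, with a median of -0.13 beside -0.12 over all genes, and a median of 0.03 against gene-matched cells. Tecta, the α-tectorin of the tectorial membrane, averaged 1968 ± 903 CPM in tdTomato-read and 1856 ± 786 CPM in read-free cells (0.08 ± 0.09, edgeR adjusted p = 0.822). Tectb, the β-tectorin, averaged 5063 ± 2409 and 6270 ± 3932 CPM and was higher on the tdTomato-read side only in Day 3 culture 3. Gjb6, a gap junction connexin, was lower in 6 of 6 cultures at 43.9 ± 28.5 against 65.8 ± 35.4 CPM (-0.75 ± 0.21, edgeR adjusted p = 0.500). Cpxm2, a carboxypeptidase-like secreted protein, averaged 940 ± 202 and 796 ± 237 CPM.

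Among other supporting cell lists no gene was called. Of the 5 genes for Hensen, Claudius and outer sulcus cells 4 were tested, with a median of 0.82 (1.19 against gene-matched cells). Fst, the activin antagonist follistatin, stood at 265, 159 and 27.3 CPM on the tdTomato-read side of the Day 1 cultures against 112, 13.2 and 92.2 CPM, and the direction differed between cultures. Gata2, a GATA transcription factor, stood at 121 and 57.4 CPM in Day 1 cultures 1 and 2 against 25.2 and 16.2 CPM, and between 14.5 and 19.0 CPM in the other 4 against 10.8 to 17.9 CPM. Nupr1 was read in 6 and 12 cells, and 1 cell of each side held 76.8% and 88.2% of its reads. Of the Fst reads on the tdTomato-read side 1 cell held 35.7%. For inner phalangeal and border cells Slc1a3, a glutamate transporter, averaged 158 ± 54.6 against 119 ± 32.5 CPM, and Hes1, a Notch effector, was lower in 6 of 6 cultures at 50.4 ± 21.2 against 63.0 ± 19.8 CPM (-0.37 ± 0.16, edgeR adjusted p = 0.588).

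No signalling or fate gene was called by edgeR. Of 12 tested Notch genes 3 lay above 0 and 9 below, with a median of -0.35 (-0.33 against gene-matched cells), and Jag2 and Rbpj were lower in 6 of 6 cultures (4.48% of all genes were). Jag2, a Notch ligand, averaged 6.43 ± 2.62 against 17.1 ± 7.21 CPM (-1.43 ± 0.39, edgeR adjusted p = 0.492, DESeq2 0.0396), and its relative Jag1 147 ± 65.3 against 202 ± 41.1 CPM, lower in 4 of 6. Of 13 FGF receptor and feedback genes 6 lay above and 7 below 0 with a median of -0.003, and Dusp6 and Etv5, targets of FGF signalling, differed by -0.003 ± 0.14 and 0.01 ± 0.13. Of 10 Wnt targets 8 lay below 0 with a median of -0.18 (-0.13 against gene-matched cells, 0.01 with each cell weighted equally), Znrf3, a feedback ubiquitin ligase, at -0.29 ± 0.14 and Tcf7 at -1.08 ± 0.78. Of 9 otic and prosensory factors the median was -0.13, with Sox2 at 13.9 ± 6.42 against 17.7 ± 5.86 CPM, Tbx2 lower in 6 of 6 cultures at 36.6 ± 11.3 against 49.4 ± 15.6 CPM, and Sox21 higher in 6 of 6 at 28.6 against 21.4 CPM.

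No stress or wound-type gene was called by edgeR. The 16 immediate early genes had a median of 0.02 (0.25 against gene-matched cells), with Fos at 107 ± 93.6 against 93.8 ± 85.5 CPM, and the 12 genes of the integrated stress response a median of -0.05 (0.24 against gene-matched cells). The 10 tested injury-type epithelial genes had a median of 0.09 (0.52 against gene-matched cells), and DESeq2 called 2 of them higher (0.626% of all genes). Clu, the secreted chaperone clusterin, stood at 14301, 15757 and 12194 CPM in tdTomato-read cells of the Day 1 cultures against 11889, 12715 and 12859 CPM, and at 11145, 8180 and 7545 CPM in those of Day 3 against 4911, 5190 and 4444 CPM. The sides did not overlap on Day 3 and did on Day 1. Its log2 difference was 0.52 ± 0.14 (edgeR adjusted p = 0.492, DESeq2 0.00935), and the Day 3 minus Day 1 term had an unadjusted edgeR p of 0.00271 (adjusted p = 0.978). Cldn4, a tight junction claudin, averaged 576 ± 160 against 394 ± 166 CPM and was lower in Day 1 culture 1.

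Of the markers of other cell types, some were at or near 0 and others were read on both sides. The summed level of the 6 macrophage and leukocyte genes was 0.0703 to 1.76 CPM in tdTomato-read and 0.287 to 4.78 CPM in read-free cells, and 4 of the 6, among them Ptprc, were at 0 in the tdTomato-read cells. Of the 5 endothelial genes Pecam1 and Kdr were at 0 on both sides, as were Tyr, Dct and Mlana of the 5 melanocyte genes. The 6 Schwann cell and glial genes summed to 23.6 to 97.3 CPM and 30.5 to 69.8 CPM, the 7 neuronal genes to 34.3 to 63.1 and 19.5 to 77.6 CPM, and the 4 marginal cell genes of the stria to 16.2 to 38.6 and 9.51 to 46.1 CPM. Syt1, a synaptic vesicle protein of neurons, was read in 53 of 92 and 134 of 303 cells, the myelin gene Mbp in 40 and 114, and the sodium pump gene Atp1b2 in 48 and 128. The 9 mesenchymal genes summed to 545 to 1503 and 391 to 956 CPM, nearly all of it Lum (883 and 651 CPM on average), a proteoglycan that was read in 90 of 92 and 283 of 303 cells. The 5 blood genes reached at most 3.53 CPM. The part of these transcripts in the differences above was not tested.

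**Figure D4:**
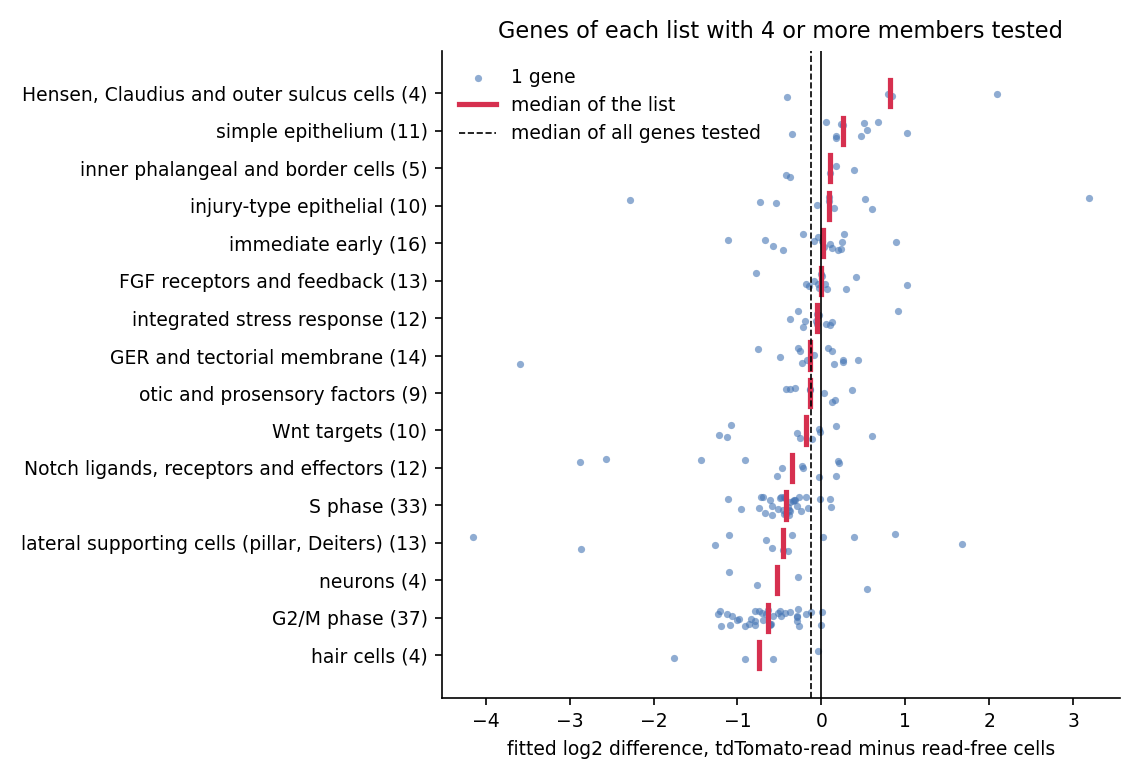
Each blue point is 1 tested gene at its fitted log2 difference between tdTomato-read and read-free cells (x axis), each row is 1 list with its number of tested genes, red bars are list medians, and the dashed line is the median of all genes tested. The G2/M and S phase medians lie at -0.64 and -0.42, left of the dashed line at -0.12, and the simple epithelium median at 0.26 lies right of it.

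Whether the difference between sides itself differed between Day 1 and Day 3 was tested with an interaction term in the same 12 sums. Of 13746 genes 0 were called (0%), 646 had an unadjusted p under 0.05 (4.7%), and DESeq2 called 34 (0.247%). The medians of the G2/M genes were -0.66 on Day 1 and -0.67 on Day 3, and those of the S phase genes -0.52 and -0.28. The simple epithelium median was 0.05 on Day 1 and 0.53 on Day 3. Myof and Egfl6 had interaction p-values of 0.510 and 0.843 without adjustment (edgeR).

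The Day 7 cells split by the same rule are separate cells from 5 other cultures. They held 5, 1, 7, 8 and 11 tdTomato-read cells in cultures 1 to 5. Of 12759 genes tested 0 were called (0%), 433 had an unadjusted p under 0.05 (3.39%), and DESeq2 called 166 (1.3%), 8 higher (0.0627%) and 158 lower (1.24%). The median over all genes was -0.54 with all 5 cultures and -0.18 without culture 2, where the tdTomato-read side was 1 cell, so values for both are given.

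Egfl6 lay higher in tdTomato-read cells of 4 of the 5 Day 7 cultures. It stood at 10.4, 0, 45.9, 74.2 and 36.8 CPM in tdTomato-read cells of cultures 1 to 5 and at 4.63, 6.17, 13.1, 15.97 and 22.7 CPM in read-free cells. The exception was culture 2, with its single tdTomato-read cell. With all 5 cultures the log2 difference of Egfl6 was 0.83 ± 1.05 (edgeR, unadjusted p = 0.452, adjusted p = 0.950). Without culture 2, the culture that went the other way, it was 1.48 ± 0.45 (edgeR, unadjusted p = 0.0124, adjusted p = 0.984). In that fit Slc1a3 (1.08 ± 0.26, edgeR unadjusted p = 0.00420) and Psat1 (-0.51 ± 0.15, 0.0107) had smaller unadjusted p-values.

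The other leading genes varied on Day 7. Sorbs2 was higher in 5 of 5 Day 7 cultures, with a log2 difference of 0.67 ± 0.35 beside 0.59 on Days 1 and 3 (edgeR unadjusted p = 0.0942, adjusted p = 0.950). Anxa2 was higher in 3 of 5, at 0.65 ± 0.43 beside 0.53. With all 5 cultures Capn6, Ero1l and Ralb lay below 0, at -0.18, -0.26 and -0.37. Of the 9 leading higher genes 8 were tested and 5 had a difference above 0 (20.7% of all genes did), and without culture 2 it was 6 of 9 (35.7%). Myof was read at 1.87 CPM or less on both sides in each Day 7 culture. Of the 10 leading lower genes 9 had a difference below 0 (79.3% of all genes), and 7 of 10 without culture 2 (64.3%), close to the share of all genes. H3f3b was lower in all 5 cultures, at 1791, 1736, 1287, 1308 and 2506 CPM against 2008, 2176, 1489, 1761 and 2732 CPM (-0.25 ± 0.11, edgeR unadjusted p = 0.0525, adjusted p = 0.950). The median over all genes was -0.54, so this direction was that of most genes. Without culture 2 H3f3b stood at -0.23 ± 0.13 beside -0.18 over all genes. The Day 7 median was -0.57 for the S phase genes and -1.03 for the G2/M genes with all 5 cultures, against -0.54 over all genes. Without culture 2 it was 0.007 for the S phase genes and -0.27 for the G2/M genes, against -0.18 over all genes. For the simple epithelium genes the Day 7 median was -0.02 with all 5 cultures and 0.22 without culture 2. With all 5 cultures 4 of these 10 genes lay above 0 (20.7% of all genes did). The share of cycling cells was higher on the tdTomato-read side in 2 of 5 cultures and lower in 2.

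**Figure D5:**
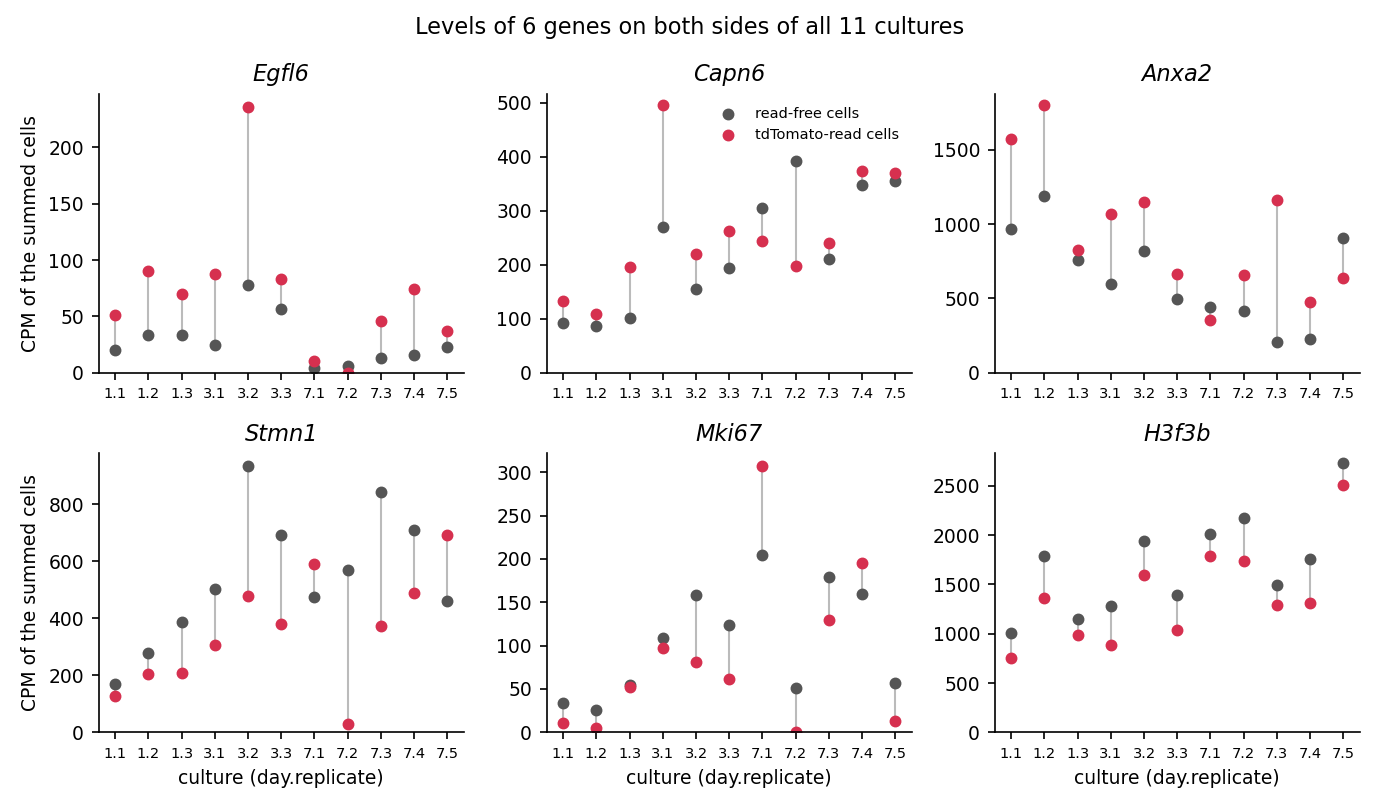
The y axis is the level in CPM of the summed cells (linear from 0) and the x axis the 11 cultures by day and replicate; red points are tdTomato-read cells and grey points read-free cells of the same culture. In the 5 Day 7 cultures, which did not choose the genes, Egfl6 is higher in red in 4 and H3f3b lower in red in 5, and Stmn1 and Mki67 change order among the Day 7 cultures. A fitted Day 7 difference below 0 was found for 79.3% of all genes tested.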

How the data were processed

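Gene expression was measured in 768 single cells. Values are expected counts, which the authors deposited as 2 tables of genes by cells, estimated with RSEM 1.3.0 after alignment with STAR 2.5.3a to mm10/GRCm38, per the submitters' processing notes. Of the values above 0, 10.6% were not whole, and all were rounded here. Identifier and version matched GENCODE M21 for 93.2% of 52636 genes, and coordinates are printed only for these. Counts were summed per culture and side and tested with edgeR 4.0.16 (TMM, filterByExpr, quasi-likelihood, R 4.3.3), with DESeq2 1.42.0 and limma 3.58.1 (log2 of mean CPM plus 1) as alternatives. The edgeR fit was also run on counts simulated from these sums. Both sides come from the same culture, so culture was a block. Deviations of the sides from their means correlated by 0.0525 to 0.318. Per-cell measures used exact sign-flip tests over 6 cultures (scipy 1.17.1), two-sided. No doublet caller was run, since cells were picked by hand.

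Named genes are up to 10 per direction by smallest p, with the same sign in 6 cultures, a mean CPM of at least 10 and a read in 10% of cells on the higher side, then 16 preset genes and 2 per list for 23 lists. Predicted genes were passed over, and some genes that met the rule are not reported here. Members, lists and rules were chosen with earlier results of these data known. Nothing states that cultures came from separate animals, so p-values measure the spread between these cultures, which may be technical. Genes with near-identical copies, such as H3f3b, and overlapping genes could share reads.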

Additional observations from a re-analysis of the deposited data

Results flagged for a closer look

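Of 69 values scanned, 68 differences between sides over the 6 cultures of Days 1 and 3 and the share of tdTomato-read cells over the 5 cultures of Day 7, 4 had a single culture far from the others, and chance alone flags about 1 in 20. Lsm3 had a log2 ratio of -0.10 in Day 1 culture 1, where the sides nearly agreed. Lgr5 had -2.01 in Day 1 culture 3, the only culture in which its tdTomato-read side was lower. Tectb had 0.71 in Day 3 culture 3, the only culture in which it was higher. Spred1, an inhibitor of Ras-ERK signalling, had 1.67 in Day 1 culture 3, which has the fewest tdTomato-read cells. Atp1b2 was lower on the tdTomato-read side in each Day 1 culture (mean log2 ratio -0.31) and higher in each Day 3 culture (0.27), and the edgeR interaction had an unadjusted p of 0.232. No cause was tested for any of these values.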

How the results depend on the processing

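The count of 0 called genes rested on the tool and the filter. DESeq2 called 197 genes in Days 1 and 3, 166 on Day 7 and 34 for the interaction. With edgeR, dropping the low-count filter called 2 (Rgs4 and Ccer2), the Day 3 cultures alone called 1 (Ccer2), and tdTomato-read cells defined by 1 or more reads called 1 (Rgs4). Leaving out each culture called 0 to 1, the 1 being Rgs4 without Day 1 culture 3 or without Day 3 culture 3. Without culture as a block, which ignores the pairing of sides, edgeR called 0 in Days 1 and 3 (474 at an unadjusted p under 0.05) and 0 on Day 7 (300). The cause of these changes was not tested. The smallest sums were 4629905 reads of 8 cells in Day 1 culture 3 and 900006 reads of 1 cell in Day 7 culture 2.

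These differences changed sign, and no gene among them was called by edgeR. Leaving out 1 culture moved the share with an eGFP read between -0.958 and 4.44 points, ERT2 between -0.349 and 4.44, and the log2 differences of Hes5 between -1.64 and 0.30, Lgr5 between -0.11 and 0.37, Fos between -0.23 and 0.40, Mal between -2.22 and 0.24, Tek between -1.14 and 1.67, Mitf between -2.26 and 0.86, Kcnq1 between -0.21 and 1.10 and Atp1b2 between -0.12 and 0.14. Against gene-matched cells, chosen after seeing the data, Hes5 was 0.24, Spred3 0.20, Atf3 0.28, Col1a2 1.24, Mal 1.20 and Tek -0.065. With limma Hes5 was 0.10, Mitf 0.092, Kcnq1 -0.13 and Atp1b2 0.12, and with DESeq2 Atp1b2 was 0.030. In the Day 1 cultures alone Hes5 was 1.48, Lgr5 -0.31, Tecta -0.0049, Epcam -0.034, Syt1 -0.092, Tek -4.72, Mitf 0.79 and Kcnq1 -2.58. In the Day 3 cultures alone Fos was -0.52, Psat1 -0.041, Mal 1.15 and Atp1b2 0.32. In the first deposited table alone Fos was -0.13, Nupr1 -0.42, Spred3 0.031, Mal 0.052, Tek -1.94, Pmel 1.98, Mitf 1.31, Kcnq1 -2.75 and Atp1b2 0.028, and in the second Hes5 was 0.52, Lgr5 -0.16 and Col1a2 0.092. With 1 or more reads Hes5 was 0.21 and Atp1b2 0.23. With 10 or more reads Tecta was -0.0088, Epcam -0.060, Fos -1.04, Hey1 -0.14, Nupr1 -3.84 and Kcnq1 -0.93, and with 10 or more CPM Tecta was -0.048, Epcam -0.052, Fos -1.15, Hey1 -0.24, Nupr1 -1.99 and Kcnq1 -0.87. In thinned cells split anew Lgr5 was -0.030, Epcam -0.043, Fos -0.19, Hey1 -0.18 and Kcnq1 -0.91, and with the split kept Kcnq1 was -0.015 and Atp1b2 0.056. Without the block Lgr5 was -0.080 and Mal 0.67, and in cells of at least 500000 reads -0.13 and 0.066. Without cycling cells Epcam was -0.041, Fos -1.39, Six2 0.0065, Col1a2 0.22 and Atp1b2 0.18, and without hair cell transcripts Atp1b2 was 0.015.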
